A study of Mus musculus with 3 samples.

Results

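Laminins, nidogens and perlecan are the proteins that, with collagen IV, build the basement membrane, the thin sheet of matrix that surrounds fat cells, vessels and nerves. A laminin is a cross-shaped trimer of 1 alpha, 1 beta and 1 gamma chain: the chains assemble inside the cell, and the alpha chain carries the globular domains that integrins and dystroglycan bind. Nidogens link the gamma chain of laminin to collagen IV, and perlecan, a large heparan sulfate proteoglycan encoded by Hspg2, binds nidogens and growth factors. The set described here was chosen by gene symbol and comprised 10 of the 56748 genes in the deposited table: the alpha chain genes Lama1, Lama2, Lama4 and Lama5, the beta chain genes Lamb1 and Lamb2, the gamma chain gene Lamc1, the nidogen genes Nid1 and Nid2, and Hspg2. All 10 were protein-coding and all 10 reached 1 CPM (counts relative to the scaled library size) in at least 1 library.

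The RNA came from fibroblasts of the visceral fat of wild-type (WT) mice fed a high-fat diet (HFD), with 1 sequencing library for each of 3 conditions. The TGF-beta1 library was from cells given recombinant human transforming growth factor beta 1 at 3 ng/mL for 24 h, the classical inducer of matrix genes in fibroblasts. The Osm library was from cells given recombinant mouse oncostatin M, a cytokine of the interleukin 6 family, at 3 ng/mL for 24 h, and the vehicle library from control cells for which no time is stated. All 3 held stromal vascular cells depleted by magnetic sorting of cells with CD45, CD31 or Ter119, and the age, sex and number of mice are not stated in the labels. The series concerns how macrophages and fibroblasts signal to each other in the fibrosis of obese fat, and the comparisons ask how each ligand changed these genes. With 1 library per condition no value has a replicate check and no test between conditions was possible. Intervals in parentheses are 95% intervals for counting error alone, exact except where the ratio of a pair of genes is compared between libraries (a normal approximation on the log scale), so they compare libraries and not conditions.

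The TGF-beta1, Osm and vehicle libraries held 18533741, 17319872 and 18336068 counted reads. Of the 56748 genes, 13712 reached 1 CPM in at least 1 library and served as the background. All 10 fibroblast markers were detected, with a summed level of 22182, 19952 and 19574 CPM, among them Pdgfra at 697.5, 1122 and 1129 CPM in the TGF-beta1, Osm and vehicle libraries. The higher sum with TGF-beta1 came from Col1a1 and Col1a2. The other 8 of the 10 were below vehicle with TGF-beta1 (median log2 ratio over the 10 of -0.48), with Fbln1 3.44-fold and Dcn 2.41-fold lower. Markers of other cells that make basement membrane were scarce. The endothelial markers Tie1, Cldn5 and Robo4 had no read in any library, and Pecam1 was at 0.271, 0.173 and 0.109 CPM. The 10 endothelial markers summed to 38.0, 45.7 and 56.7 CPM, nearly all of it Tek, and 3 of the 10 reached 1 CPM. The 7 adipocyte markers summed to 0.380, 0.403 and 0.326 CPM, and none reached 1 CPM. The 8 Schwann cell markers summed to 13.0, 11.6 and 13.5 CPM, with Sox10 and Foxd3 at 0, and the 6 erythroid markers were all at 0. The 9 mesothelial markers summed to 52.3, 42.9 and 43.9 CPM, most of it Wt1. The 10 mural markers summed to 125.1, 60.3 and 62.2 CPM, most of the excess with TGF-beta1 being Cspg4, and the 9 leukocyte markers to 14.9, 15.9 and 18.8 CPM. In bulk RNA, fewer cells of a type and less RNA per cell cannot be told apart.

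Together the 10 genes took 0.788% of all counted reads in the TGF-beta1 library, 0.871% in the Osm library and 0.863% in the vehicle library. The total therefore lay close together in the 3 libraries, but with TGF-beta1 the members moved in both directions. Against vehicle, 3 had an interval above a ratio of 1, namely Lama1, Lama5 and Hspg2, and 6 an interval below it, namely Lama2, Lama4, Lamb1, Lamc1, Nid1 and Nid2. The interval of Lamb2 held 1. With many reads such an interval excludes 1 at a small difference (1.15-fold for Lamc1). The share of all genes tested with such an interval is not given here. Only Lama1 was at least 2-fold higher (1 of 10, where 2.27% of all genes tested were) and none was at least 2-fold lower (where 4.79% were). At a threshold of 1.5-fold, 1 of 10 was higher (background 6.01%) and 3 were lower, Lama4, Lamb1 and Nid2 (background 9.53%). The median log2 ratio over the members was -0.18, against 0.01 over all genes tested.

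With Osm the same 10 genes stayed near vehicle. None was at least 2-fold higher (background 0.948%) or at least 2-fold lower (background 0.649%), and none passed 1.5-fold in either direction (background 2.1% and 1.66%). The log2 ratios ran from -0.18 for Lama2 to 0.26 for Lama5, and the median was 0.02, against 0.00 over all genes tested. The interval lay above 1 for Lama4, Lamb1 and Hspg2, below 1 for Lama2 and Nid1, and held 1 for the other 5. Here too an interval can exclude 1 at a small difference (1.02-fold for Nid1), and no share of all genes is given for it.

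**Figure D1:**
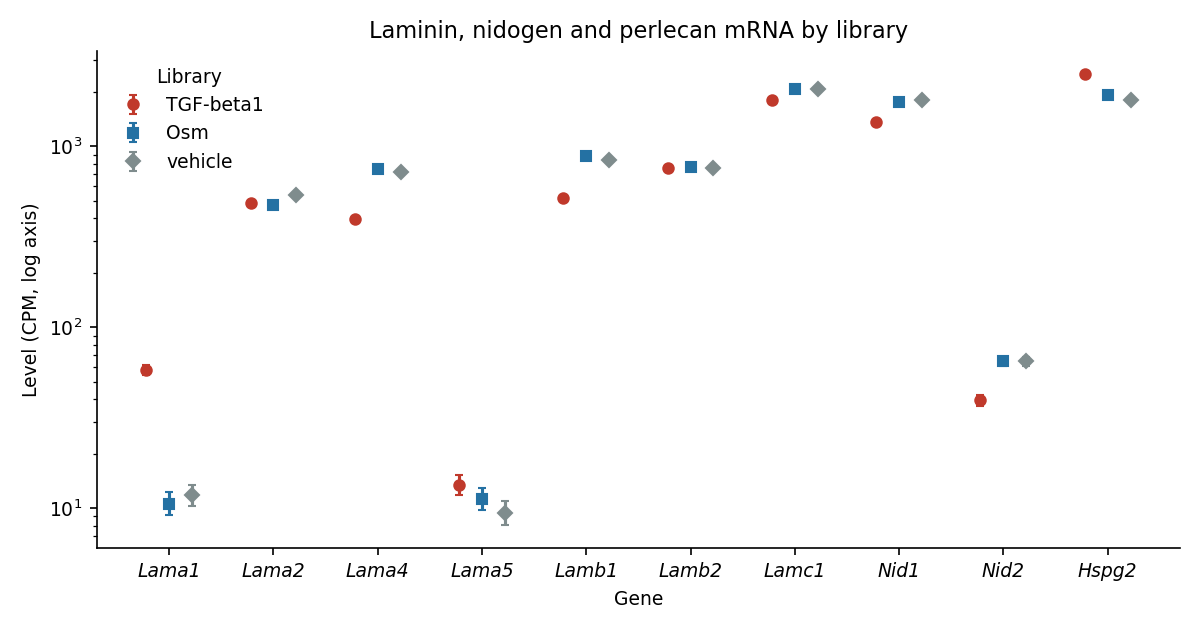
Level of each gene in the TGF-beta1 (circles), Osm (squares) and vehicle (diamonds) libraries in CPM on a log axis, with exact 95% Poisson intervals for counting error. Lamc1, Nid1 and Hspg2 lie highest in all 3 libraries, Lama1 stands apart at 58.1 CPM with TGF-beta1, and Lama4, Lamb1 and Nid2 are lowest with TGF-beta1.

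The alpha chains give a laminin its receptor preference. Lama1 (ENSMUSG00000032796, chromosome 17, 68004254 to 68129642, plus strand, build mm39) encodes the alpha chain of the first laminin described, which is found mainly in embryonic and some epithelial basement membranes. It was at 58.1 CPM in the TGF-beta1 library (1071 reads), 10.6 CPM in the Osm library (184 reads) and 11.8 CPM in the vehicle library (217 reads). The TGF-beta1 library was thus high and the Osm and vehicle libraries were within counting error of each other. Lama1 was 4.92-fold higher with TGF-beta1 than with vehicle (4.25 to 5.73), and 0.824% of all genes tested were as far from vehicle in either direction. Over Osm it was 5.47-fold higher (4.68 to 6.44), while Osm over vehicle was 1.11-fold lower with an interval that held 1 (0.910-fold to 1.36-fold). Even so, Lama1 remained a minor alpha chain per unit of length, at 6.01 FPKM (the authors' values, relative to library size and gene length) with TGF-beta1, 1.09 FPKM with Osm and 1.22 FPKM with vehicle. Mesothelial Wt1 was at 43.4, 36.1 and 37.1 CPM and mural Cspg4 at 74.9, 7.38 and 8.53 CPM in the same libraries. Of the 6 mesothelial markers that reached 1 CPM in at least 1 library, 4 were above and 2 below vehicle with TGF-beta1. Their median log2 ratio was 0.49, and 2 were at least 2-fold higher (background 2.27%), on few reads (Krt19 28 against 12, Upk1b 33 against 16). Both Krt19 and Upk1b reached 1 CPM only in the TGF-beta1 library. The filter by itself thus favoured higher values there, and the split, median and calls of the mesothelial markers carry no weight. The mural markers did not move together: of the 7 that reached 1 CPM in at least 1 library, 3 were above and 4 below vehicle with TGF-beta1, with a median log2 ratio of -0.49. Abcc9 was 2.45-fold lower (1.62 to 3.85) and Myh11 1.42-fold lower (1.12 to 1.81), and Notch3 and Vtn were also lower. The part of such cells in the Lama1 values was not tested.

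Lama4 (ENSMUSG00000019846, chromosome 10, 38841511 to 38986184, plus strand) encodes a short alpha chain typical of vessels, fat and muscle. Per length it was the most abundant alpha chain in all 3 libraries, at 33.1, 61.9 and 59.9 FPKM with TGF-beta1, Osm and vehicle. Its read level was 398.3 CPM with TGF-beta1, 749.5 CPM with Osm and 722.5 CPM with vehicle. It was 1.81-fold lower with TGF-beta1 than with vehicle (1.76 to 1.87) and 1.88-fold lower than with Osm (1.83 to 1.94), the largest differences downward among the members and short of 2-fold. With Osm it was 1.04-fold higher than with vehicle (1.01 to 1.06). The summed endothelial markers were also lower with TGF-beta1 (38.0, 45.7 and 56.7 CPM with TGF-beta1, Osm and vehicle). The 3 that reached 1 CPM in at least 1 library were all below vehicle, with a median log2 ratio of -1.25. Of these, 2 were at least 2-fold lower (background 4.79%), Vwf with 29 reads against 114 and Cdh5 with 9 against 22. Cdh5 was under 1 CPM with TGF-beta1, so the filter favoured its call. The part of endothelial cells in the Lama4 values was not tested.

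Lama2 (ENSMUSG00000019899, chromosome 10, 26856032 to 27495754, minus strand) encodes the alpha chain of merosin, the laminin of muscle and nerve. It was at 483.4, 475.1 and 538.1 CPM in the TGF-beta1, Osm and vehicle libraries. Both treated libraries lay slightly under vehicle, 1.11-fold lower with TGF-beta1 (1.08 to 1.15) and 1.13-fold lower with Osm (1.10 to 1.17), and their ratio to each other held 1 (0.987 to 1.05). Lama5 (ENSMUSG00000015647, chromosome 2, 179818166 to 179867652, minus strand), whose chain is widespread in adult epithelial and vessel basement membranes, was low at 13.4, 11.2 and 9.40 CPM. It was 1.42-fold higher with TGF-beta1 than with vehicle (1.17 to 1.74), and the intervals of TGF-beta1 over Osm (0.984 to 1.45) and of Osm over vehicle (0.969 to 1.48) held 1.

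Both major beta chains were expressed, and only Lamb1 had a level in the TGF-beta1 library that stood apart by more than counting error. Lamb1 (ENSMUSG00000002900, chromosome 12, 31315233 to 31379643, plus strand), the beta chain of most embryonic and many adult laminins, was at 519.1 CPM with TGF-beta1, 885.3 CPM with Osm and 837.8 CPM with vehicle. It was 1.61-fold lower with TGF-beta1 than with vehicle (1.57 to 1.66) and 1.71-fold lower than with Osm (1.66 to 1.75). Lamb2 (ENSMUSG00000052911, chromosome 9, 108356935 to 108367729, plus strand), the beta chain known from the kidney filter and the nerve-muscle synapse, was at 762.0, 770.7 and 754.7 CPM. The 3 Lamb2 values did not differ beyond counting error, with TGF-beta1 over vehicle at 1.01-fold (0.986 to 1.03) and Osm over vehicle at 1.02-fold (0.997 to 1.05).

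Lamc1 (ENSMUSG00000026478, chromosome 1, 153094668 to 153208532, minus strand) encodes the gamma chain that most laminins share. It was at 1794 CPM with TGF-beta1, 2060 CPM with Osm and 2060 CPM with vehicle. The TGF-beta1 library was the low one, 1.15-fold below vehicle (1.13 to 1.17), and the Osm and vehicle libraries were within counting error. Lamc1 ranked 135, 125 and 126 among protein-coding genes by FPKM in the TGF-beta1, Osm and vehicle libraries.

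Nid1 (ENSMUSG00000005397, chromosome 13, 13612136 to 13686854, plus strand), the main nidogen, was at 1354 CPM with TGF-beta1, 1748 CPM with Osm and 1790 CPM with vehicle. It was 1.32-fold lower with TGF-beta1 than with vehicle (1.30 to 1.34), and with Osm 1.02-fold lower (1.01 to 1.04). The rarer Nid2 (ENSMUSG00000021806, chromosome 14, 19801333 to 19861855, plus strand) was at 39.4, 64.8 and 65.0 CPM. It was 1.65-fold lower with TGF-beta1 than with vehicle (1.504 to 1.81), and Osm and vehicle were within counting error. Nid2 is overlapped on the opposite strand by Rtraf, at 71.0, 67.9 and 72.0 CPM in the TGF-beta1, Osm and vehicle libraries. No source used here states which strand was counted, so reads of the overlapping stretch cannot be told apart, and the part of Rtraf in the Nid2 values was not tested.

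Hspg2 (ENSMUSG00000028763, chromosome 4, 137196080 to 137297941, plus strand) encodes the core protein of perlecan. It was the member with the most reads in the TGF-beta1 library, at 2506 CPM, against 1922 CPM with Osm and 1812 CPM with vehicle. The order was TGF-beta1, then Osm, then vehicle, and each step exceeded counting error. Hspg2 was 1.38-fold higher with TGF-beta1 than with vehicle (1.36 to 1.40), 1.30-fold higher than with Osm (1.29 to 1.32), and 1.06-fold higher with Osm than with vehicle (1.04 to 1.08).

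**Figure D2:**
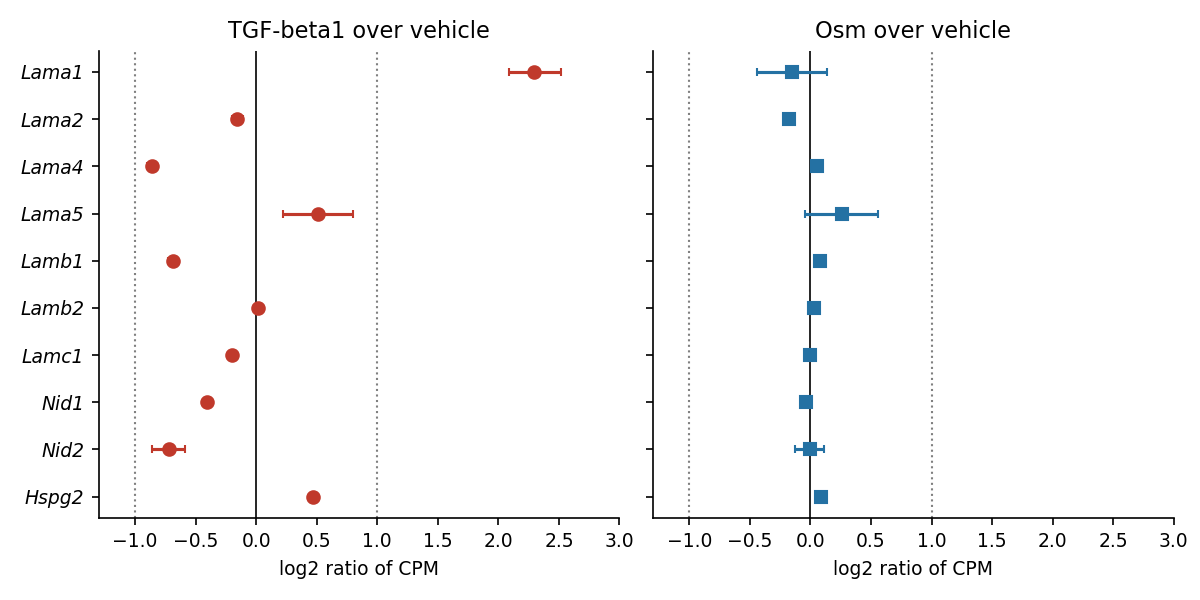
Log2 ratio of CPM of each gene for TGF-beta1 over vehicle (left) and Osm over vehicle (right). Bars are exact 95% intervals for counting error and dotted lines mark a 2-fold difference. With TGF-beta1 the points spread from -0.86 for Lama4 to 2.30 for Lama1, and with Osm they stay between -0.18 and 0.26.

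The direct comparison of the treated libraries shares the TGF-beta1 library with the comparison above and is no separate evidence. In TGF-beta1 over Osm, 1 of 10 members was at least 2-fold higher (background 2.42%), Lama1, and none at least 2-fold lower (background 5.07%). At 1.5-fold, 1 was higher (background 6.16%) and 3 were lower (background 9.93%), with log2 ratios of -0.91 for Lama4, -0.77 for Lamb1 and -0.72 for Nid2. The median over the members was -0.11 and that over all genes tested 0.01.

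Because a laminin needs 1 chain of each class, the chains were also set side by side per unit of length within each library. Summed over the chains of a class, the 5 alpha genes reached 69.5, 92.5 and 94.4 FPKM in the TGF-beta1, Osm and vehicle libraries. The 3 beta genes reached 178.1, 215.2 and 208.7 FPKM, and the gamma chain gene Lamc1 alone 217.3, 248.2 and 249.2 FPKM. Summed alpha chain mRNA was therefore below summed beta chain mRNA and below Lamc1 in each library. The nidogens summed to 203.0, 263.4 and 270.6 FPKM. FPKM divides by the gene length in the deposited table, which is 12068 bases for Lama4 where its longest coding transcript in GENCODE M21 has 6046. With the longest coding transcript in place of that length, the alpha class was again below the beta class, with sums of 123.5, 175.5 and 177.6 scaled reads per kilobase in the TGF-beta1, Osm and vehicle libraries, against 225.2, 290.0 and 278.9 for the beta class.

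Within the alpha class, Lama4 made up 47.6% of the summed FPKM with TGF-beta1, 66.9% with Osm and 63.5% with vehicle. Lama2 made up 42.0%, 30.8% and 34.3%. Lama1 made up 8.65%, 1.18% and 1.29%, and Lama5 1.70%, 1.06% and 0.875%. By longest coding transcript the Lama4 shares were 53.3%, 70.6% and 67.3%, the Lama2 shares 40.7%, 28.2% and 31.5%, the Lama1 shares 4.94%, 0.634% and 0.697%, and the Lama5 shares 0.953%, 0.562% and 0.465% in the TGF-beta1, Osm and vehicle libraries. By either length the Lama4 share was lowest and the shares of Lama2, Lama1 and Lama5 were highest in the TGF-beta1 library, while the size of the small shares depended on the length used. Ratios of reads within a library do not depend on how the libraries were scaled. Per length, Lama2 was at 0.882 of Lama4 with TGF-beta1 (0.855 to 0.910), 0.461 with Osm (0.448 to 0.474) and 0.541 with vehicle (0.527 to 0.556). The ratio of Lama1 to Lama4 was 8.94 times as high with TGF-beta1 as with vehicle (7.70 to 10.4), a change that no choice of length can alter, since the lengths cancel.

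Within the beta class, Lamb2 made up 70.5% with TGF-beta1, 58.7% with Osm and 59.5% with vehicle, and Lamb1 nearly all of the rest. The ratio of Lamb1 to Lamb2 per length was 0.418 with TGF-beta1 (0.407 to 0.429), 0.705 with Osm (0.688 to 0.721) and 0.681 with vehicle (0.665 to 0.697). It was 1.63-fold lower with TGF-beta1 than with vehicle (1.57 to 1.69), and with Osm it was 1.03 times that of vehicle (1.00 to 1.07). The order of the 2 beta chains depends on the length used: by longest coding transcript (5784 bases for Lamb1, 5629 for Lamb2) the ratio was 0.663 with TGF-beta1, 1.12 with Osm and 1.08 with vehicle, so that Lamb1 and Lamb2 were near parity outside the TGF-beta1 library.

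**Figure D3:**
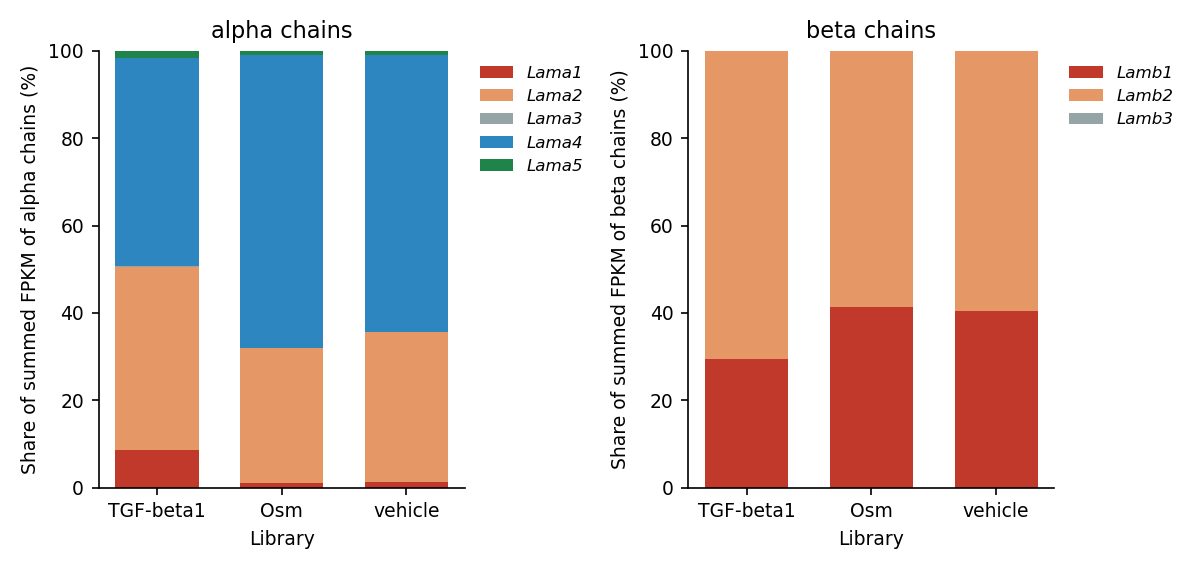
Share of each chain gene in the summed FPKM of the alpha chains (left) and beta chains (right), in percent, for the TGF-beta1, Osm and vehicle libraries. With TGF-beta1 the Lama4 share is 47.6% and the Lama1 share 8.65%, against 63.5% and 1.29% with vehicle, and the Lamb1 share is 29.5% against 40.5%.

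The linkers shifted against each other as well. Hspg2 per length was at 0.872 of Nid1 with TGF-beta1 (0.858 to 0.885), 0.518 with Osm (0.510 to 0.526) and 0.477 with vehicle (0.470 to 0.484), so this ratio was 1.83 times as high with TGF-beta1 as with vehicle (1.79 to 1.87). Nid1 and Lamc1, whose proteins bind each other, were close to each other per length in each library. Lamc1 per length was 1.11 times Nid1 with TGF-beta1 (1.09 to 1.13), 0.989 times with Osm (0.974 to 1.00) and 0.966 times with vehicle (0.952 to 0.980). The ratio of Lamc1 to Nid1 was thus 1.15 times as high with TGF-beta1 as with vehicle (1.13 to 1.18). Nid2 was at 0.0390 of Nid1 with TGF-beta1 (0.0362 to 0.0420), 0.0497 with Osm (0.0468 to 0.0528) and 0.0487 with vehicle (0.0460 to 0.0516). The ratio of Nid2 to Nid1 was 1.25-fold lower with TGF-beta1 than with vehicle (1.14 to 1.37). The ratio of Lama4 to Lamb1, both lower with TGF-beta1, was 1.12-fold lower with TGF-beta1 than with vehicle (1.08 to 1.17).

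**Figure D4:**
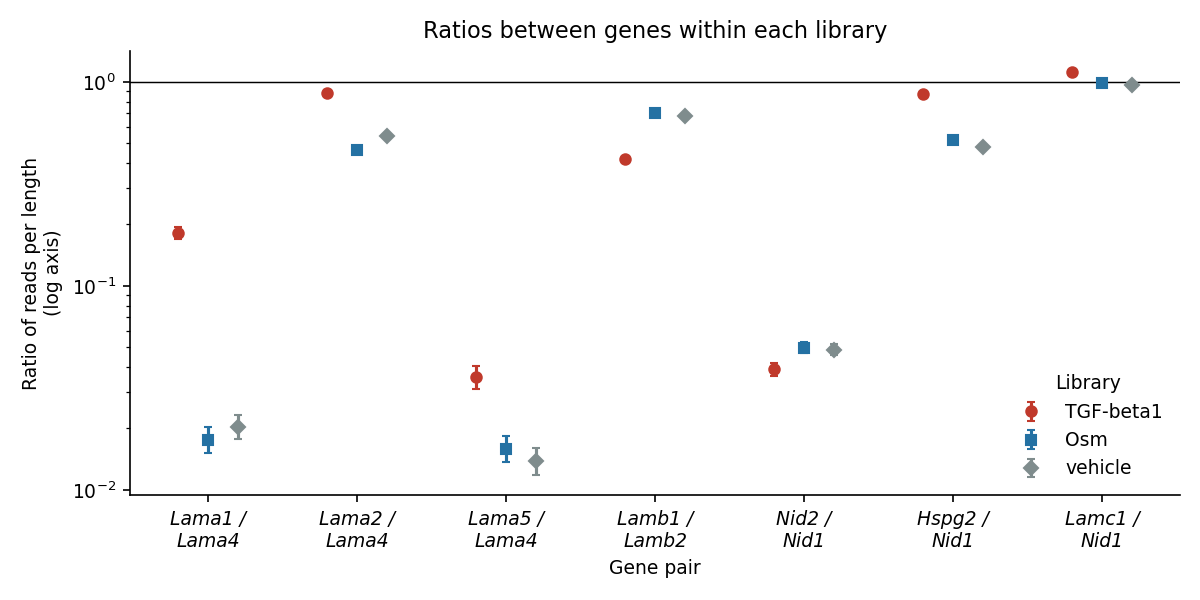
Ratio of reads per deposited gene length between pairs of genes within the TGF-beta1 (circles), Osm (squares) and vehicle (diamonds) libraries, on a log axis, with exact 95% intervals for counting error. The TGF-beta1 point stands apart for Lama1, Lama2 and Lama5 over Lama4, for Lamb1 over Lamb2 and for Hspg2 over Nid1. For Nid2 over Nid1 it is lower by a smaller step, with an interval that does not meet those of Osm and vehicle. Lamc1 over Nid1 lies between 0.966 and 1.11 and is highest with TGF-beta1.

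RefSeq promoter windows (build GRCm38.p6) were at hand for 6 of the 10 members, and are shown for 2 pairs of genes whose ratio to each other differed between the TGF-beta1 and vehicle libraries, Lamb1 with Lamb2 and Hspg2 with Nid1. Each is the plus strand, 250 bases long and ends just before the annotated start. Capitals mark the GC box GGGCGG, the letters bound by Sp1 and Klf family factors, on either strand. The windows are chr12:31265043-31265292 for Lamb1, chr9:108479612-108479861 for Lamb2, chr4:137468553-137468802 for Hspg2 and chr13:13437352-13437601 for Nid1.
Lamb1: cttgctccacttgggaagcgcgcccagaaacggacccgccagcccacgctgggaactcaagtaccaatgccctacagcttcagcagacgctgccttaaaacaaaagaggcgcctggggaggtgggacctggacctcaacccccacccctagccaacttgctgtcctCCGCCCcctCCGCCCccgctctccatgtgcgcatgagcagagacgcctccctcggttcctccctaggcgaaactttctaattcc
Lamb2: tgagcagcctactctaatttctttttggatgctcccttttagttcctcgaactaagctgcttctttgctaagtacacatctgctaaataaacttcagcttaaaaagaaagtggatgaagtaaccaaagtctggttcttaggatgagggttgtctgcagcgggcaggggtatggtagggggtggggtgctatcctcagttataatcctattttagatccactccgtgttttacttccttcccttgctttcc
Hspg2: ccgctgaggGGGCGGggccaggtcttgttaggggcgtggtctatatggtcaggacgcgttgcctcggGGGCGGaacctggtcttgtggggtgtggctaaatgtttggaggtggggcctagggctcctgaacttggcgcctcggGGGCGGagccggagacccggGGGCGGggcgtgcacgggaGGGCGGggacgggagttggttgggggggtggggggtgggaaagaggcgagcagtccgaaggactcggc
Nid1: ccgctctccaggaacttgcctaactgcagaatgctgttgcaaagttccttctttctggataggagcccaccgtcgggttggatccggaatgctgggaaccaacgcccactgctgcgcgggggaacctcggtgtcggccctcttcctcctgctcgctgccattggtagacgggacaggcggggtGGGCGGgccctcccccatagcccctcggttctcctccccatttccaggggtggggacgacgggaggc
The GC box occurred 5 times in the Hspg2 window, 2 times in that of Lamb1, 1 time in that of Nid1 and 0 times in that of Lamb2. It was in 32.7% of 32851 mouse promoter windows of this length. The Smad-binding core CAGAC, read on either strand, occurred 1 time in the Lamb1 window, 167 bases before the start, and 2 times in that of Lamb2, and it shared no base with a GC box. It was in 42.2% of all windows, in 4 of the 6 member windows and in neither that of Hspg2 nor that of Nid1. The AP-1 letters TGANTCA and the TATA box TATAAA, present in 6.75% and 12.4% of all windows on either strand, were in none of the 6. The GC content was 70.0% for Hspg2, 64.4% for Nid1, 62.0% for Lamb1 and 43.6% for Lamb2. These matches describe the letters only.

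The laminin chain genes Lama3, Lamb3 and Lamc3 had few reads. Lama3 had 17 reads with TGF-beta1, 5 with Osm and 5 with vehicle, Lamb3 had 11, 2 and 2 reads, and Lamc3 had 24, 9 and 12 reads.

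Receptors for laminin and perlecan were read out from a list of 13 genes, each at 1 CPM or more in at least 1 library. In TGF-beta1 over vehicle, 3 of the 13 passed 2-fold upward (2.27% of all genes tested did) and 1 downward (4.79% did), and the median log2 ratio was -0.23. The 3 encode integrin alpha subunits and were at low levels and just past the threshold. Itga7 was at 6.29 CPM with TGF-beta1 and 3.10 CPM with vehicle (2.02-fold, 1.47 to 2.84). Itga2 (2.02-fold, 1.48 to 2.805) and Itga3 (2.00-fold, 1.56 to 2.59) were singled out after their values were seen. With a prior count of 2 none of the 3 reached 2-fold, and scaling by count totals alone left Itga3 short of it. The other alpha subunits of the list did not pass 2-fold with TGF-beta1. Itga6 was 1.21-fold higher than vehicle with an interval that held 1 (0.769 to 1.91), and Itga1 was 1.22-fold lower (1.04 to 1.44). Sdc4, a heparan sulfate proteoglycan of focal adhesions, was at 49.2 CPM with TGF-beta1 and 100.4 CPM with vehicle. The abundant receptors moved less: Itgb1, the shared integrin beta subunit, was at 1544, 1087 and 1128 CPM with TGF-beta1, Osm and vehicle, and Dag1, which encodes dystroglycan, at 473.2, 536.3 and 564.7 CPM. With Osm over vehicle none of the 13 was at least 2-fold apart (background 0.948% higher and 0.649% lower). Sdc1 was 1.46-fold higher (1.40 to 1.52) and Itga1 1.37-fold lower (1.16 to 1.63), while Itga6, at 3.05 CPM with Osm and 2.07 CPM with vehicle, was 1.47-fold higher with an interval that held 1 (0.957-fold to 2.31-fold).

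Of 25 other basement membrane proteins, 23 reached 1 CPM in at least 1 library. In TGF-beta1 over vehicle, 3 passed 2-fold upward (background 2.27%) and 3 downward (background 4.79%), with a median log2 ratio of 0.07. Tinagl1, which encodes a matricellular protein of basement membranes, was at 42.4 CPM with TGF-beta1 and 12.0 CPM with vehicle (3.54-fold higher, 3.05 to 4.14). Hmcn2, which encodes hemicentin 2, was at 7.76 CPM with TGF-beta1 and 41.3 CPM with vehicle (5.31-fold lower, 4.45 to 6.41). Named after their values were seen, the others were Col15a1 (2.11-fold higher, 2.05 to 2.18), Fbln1 (3.44-fold lower, 3.22 to 3.68), and 2 genes near the floor, Thsd4 with 19 reads against 5 and Papln with 2 reads against 20. Thsd4 reached 1 CPM only in the TGF-beta1 library and Papln only in the vehicle library, so the filter itself favoured these 2 calls. Smoc1 and Fras1 also reached 1 CPM only with TGF-beta1, which favoured a higher list median. The nidogens attach to the collagen IV network, whose most abundant chain genes here, Col4a1 and Col4a2, lay near vehicle. Col4a1 was at 1512, 1555 and 1659 CPM and Col4a2 at 1314, 1235 and 1269 CPM in the TGF-beta1, Osm and vehicle libraries. Col4a5, named after its values were seen, was at 105.0, 62.2 and 78.6 CPM. Against vehicle it was 1.34-fold higher with TGF-beta1 (1.25 to 1.43) and 1.26-fold lower with Osm (1.17 to 1.37). Col4a6 was 1.39-fold lower with Osm than with vehicle (1.07 to 1.80). The most abundant of the list, Fbln2 and Sparc, were 1.09-fold lower (1.08 to 1.10) and 1.39-fold higher (1.37 to 1.40) with TGF-beta1 than with vehicle. With Osm over vehicle, none of the 23 was at least 2-fold apart with an interval that excluded 1 (background 0.948% higher and 0.649% lower). Hmcn2 was 1.93-fold lower (1.70 to 2.19). Thsd4 (2.40-fold higher, 0.835 to 9.22) and Papln (2.04-fold lower, 0.912 to 5.23) lay further out, but on few reads and with intervals that held 1.

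Laminin binds dystroglycan through a sugar chain, and perlecan acts in part through its heparan sulfate. The enzymes that make the first, and those that make or trim the second, were therefore also counted. Of 13 dystroglycan glycan enzymes 11 reached 1 CPM in at least 1 library. None of the 11 was at least 2-fold apart in TGF-beta1 over vehicle (background 2.27% higher and 4.79% lower) or in Osm over vehicle (background 0.948% higher and 0.649% lower). Their median log2 ratios were 0.04 and -0.01. Rxylt1 had the largest difference with TGF-beta1, 1.35-fold higher than vehicle (1.23 to 1.49).

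All 19 heparan sulfate enzymes reached 1 CPM in at least 1 library. In TGF-beta1 over vehicle 2 of the 19 passed 2-fold upward (background 2.27%) and 1 downward (background 4.79%), with a median log2 ratio of -0.05. Sulf1, an extracellular enzyme that removes sulfate groups from heparan sulfate, was at 1120 CPM with TGF-beta1, 678.2 CPM with Osm and 536.4 CPM with vehicle. It was 2.09-fold higher with TGF-beta1 (2.04 to 2.14) and 1.26-fold higher with Osm (1.23 to 1.30), both over vehicle. Sulf2, named after its values were seen, went the other way, at 84.1, 126.4 and 145.6 CPM with TGF-beta1, Osm and vehicle. Hs6st2, which adds sulfate at the 6-O position, was 2.28-fold higher with TGF-beta1 than with vehicle (2.04 to 2.55). Hpse, the heparanase gene, was at 17.2 CPM with TGF-beta1, 45.1 CPM with Osm and 39.7 CPM with vehicle, 2.30-fold lower with TGF-beta1 than with vehicle (2.02 to 2.64). With Osm over vehicle none of the 19 was at least 2-fold apart (background 0.948% higher and 0.649% lower).

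**Figure D5:**
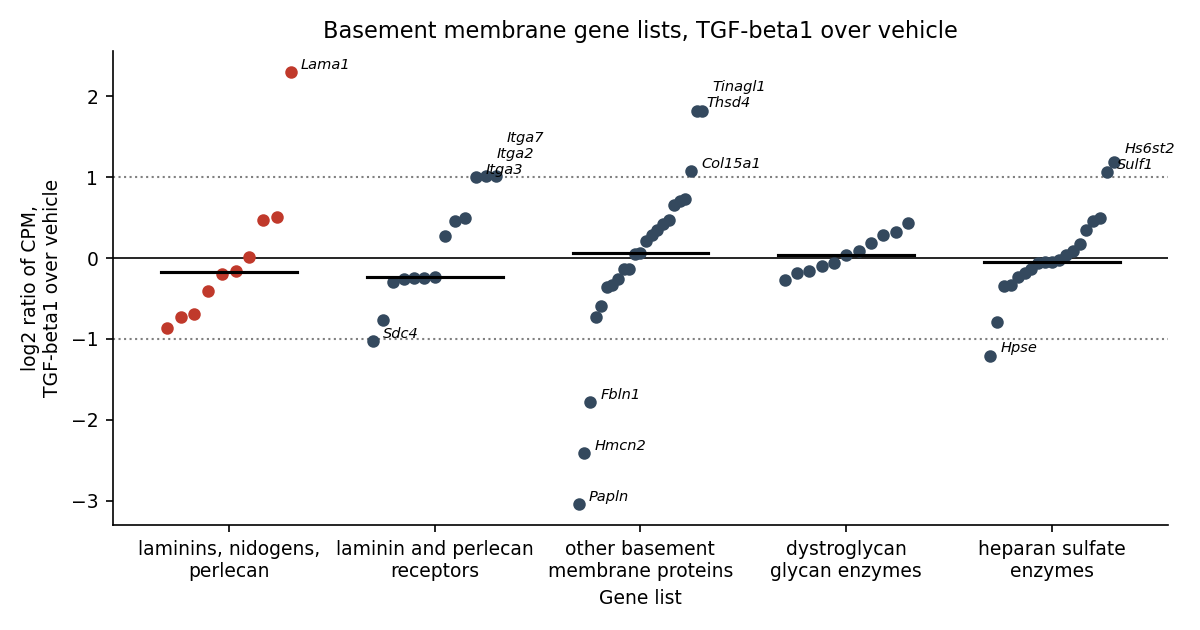
Log2 ratio of CPM, TGF-beta1 over vehicle, of every gene at 1 CPM or more in 5 lists, with the list median as a bar and names for genes at least 2-fold apart. Dotted lines mark 2-fold. The 10 members have a median of -0.18 and Lama1 as their single named gene, while the dystroglycan glycan enzymes have none.

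The genes most like Lama1 in their pair of log2 ratios, out of 9115 that code for protein and reached 10 CPM in any library, were Pi16, Fgf21 and Adamts8, at distances of 0.16, 0.26 and 0.30 on the log2 scale. Pi16, a peptidase inhibitor gene that marks adventitial fibroblasts, was at 74.5 CPM with TGF-beta1, 15.4 CPM with Osm and 16.96 CPM with vehicle. The hormone gene Fgf21 was at 13.1, 2.36 and 2.99 CPM and the protease gene Adamts8 at 15.5, 2.19 and 2.55 CPM. Fgf21 and Adamts8 reached 10 CPM only in the TGF-beta1 library, so the rule of 10 CPM itself favoured a rise there for them. The likeness rests on 3 libraries and thus on only 2 ratios per gene.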

How the data were processed

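The authors deposited raw read counts per gene, as whole numbers, and FPKM for those genes, with 1 column per library. Per the submitters' processing notes, CASAVA, HISAT2, HISAT and TopHat2 were used, without versions or roles, with the genome build mm39. Oligo-dT beads selected mRNA, which was fragmented and copied with random hexamers, per the labels' protocols. The counting tool, the annotation release and the strand setting are not stated in any source used here. The authors' FPKM values equal the counts over the deposited gene length and an effective library size. They served for levels per length and as an alternative.

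Counts were scaled to CPM with edgeR 4.0.16 TMM factors (0.995, 1.00 and 1.00 for TGF-beta1, Osm and vehicle) in R 4.3.3. DESeq2 1.42.0 gave alternative size factors. The background was every gene that reached 1 CPM in any library. A log2 ratio used a prior count of 0.5. A gene was at least 2-fold (or 1.5-fold) apart where the ratio reached that size and its exact Clopper-Pearson 95% interval, from a binomial conditional on the summed counts, excluded 1. As each group had 1 library, no model could be fitted and there are no p-values. Reads carry no molecular identifiers, so intervals may be too narrow. The change of a ratio between genes was given a normal-approximation interval on the log scale. Sequence shared with other genes was sought in GENCODE M21 transcripts as exact matches on the transcript strand. Of 50-base windows, 1 in 10 sampled, 1.98% of those of Nid1 and 0% of those of the other 9 members occurred in a transcript of another gene. This check cannot detect sequence shared with the opposite strand, as for Nid2 and Rtraf, or sequence shared with mismatches. Other computations used Python 3.11.15, scipy 1.17.1, numpy 2.4.6, matplotlib 3.10.9 and pandas 2.3.3.

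The members and lists were chosen with earlier results of these data known. From each of 5 lists the genes named were, per comparison, the 2 with the largest log2 ratio in size among those at 5 CPM or more and the 2 with the highest mean level, as far as they bear on the members. For a member past 2-fold against vehicle, the 3 genes of nearest pattern were named.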

Additional observations from a re-analysis of the deposited data

How the results depend on the processing

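DESeq2 size factors, count totals alone, a prior count of 2 and the ratio of the authors' FPKM values left the number of members at least 2-fold higher or lower the same in all 3 comparisons. They moved no member's log2 ratio by more than 0.0130, and 1 sign changed, that of Lamc1 in Osm over vehicle, which was 0.00 and within counting error. Among the other lists the settings moved 1 count, that of receptors at least 2-fold higher with TGF-beta1 than with vehicle, which was 3, and 0 with a prior count of 2 and 2 with count totals alone. The share of all genes at least 2-fold apart either way was 1.60% for Osm over vehicle, 7.06% for TGF-beta1 over vehicle and 7.49% for TGF-beta1 over Osm. Among genes at 10 CPM or more in at least 1 library it was 0.150%, 3.43% and 3.55%, and among protein-coding genes it was 0.847% for Osm over vehicle. With the longest coding transcript as length, chosen after seeing the data, the Lama4 share of the alpha chains was 53.3% with TGF-beta1, 70.6% with Osm and 67.3% with vehicle, and the Lamb2 share of the beta chains 60.1%, 47.2% and 48.1%. Which transcripts were expressed was not tested. No paired analysis was possible because each condition has 1 library, and for the same reason no library could be left out. Counting error limits Lama1, Lama5 and Nid2 most, since they have the fewest reads.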

Other observations

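A long noncoding RNA gene, Gm48682, lies on the opposite strand within the span of Nid1. It had 47 reads in the TGF-beta1 library, 144 in the Osm library and 105 in the vehicle library (2.55, 8.30 and 5.71 CPM). Nid1 itself had 24958, 30340 and 32942 reads in those libraries. It was singled out after its values were seen. By FPKM among protein-coding genes, Lama1 ranked 5961 with TGF-beta1, 10195 with Osm and 10042 with vehicle, and Nid2 ranked 5166, 3536 and 3502. Hspg2 ranked 197, 287 and 309, while Lama4 ranked 1372, 701 and 724.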
